A study of Homo sapiens with 8 samples.

Results

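ATF4 and 9 further genes of the unfolded protein response and the integrated stress response were followed across 8 human expression arrays. The 10 genes were ATF4, DDIT3, ASNS, TRIB3, HSPA5, HSP90B1, XBP1, CALR, PDIA4 and DNAJB9, chosen by name for their place in these pathways, with earlier results of these data known. Of the 10, 9 were matched to a probe set by gene symbol, out of 17491 genes with a value, and each of the 9 had 1 probe set. HSP90B1, the endoplasmic reticulum (ER) paralogue of the HSP90 chaperones, has no expression value here: its level was not analysed.

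The ER folds secreted and membrane proteins, and unfolded protein in its lumen is sensed by 3 membrane proteins, PERK, IRE1 and ATF6. PERK phosphorylates the translation factor eIF2, which slows protein synthesis while the mRNA of ATF4 is translated more, and ATF4 then activates genes of amino acid supply and, through DDIT3 (CHOP), of cell death. IRE1 splices the mRNA of XBP1, and spliced XBP1 and cleaved ATF6 activate ER chaperones and the machinery that degrades misfolded protein. Cells driven by the transcription factor MYC make much protein and are known to lean on the ATF4 arm. An array value is the mRNA level of the gene: it reads neither the translation of ATF4 nor the splicing of XBP1.

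All samples came from BALB/c nude mice, an athymic strain, that bore subcutaneous SkMel147 tumours (SkMel147 is a line of human skin melanoma cells). From a tumour volume of about 750 mm3 on, mice received vehicle or received doxycycline in their drinking water. Doxycycline was to switch on Omomyc, a dominant-negative form of MYC, in the tumour cells. Each group has 4 samples. Lymph node metastases were taken 2 days after treatment. The sources used here do not give the age of the mice, nor the promoter of the transgene beyond its response to doxycycline. Vehicle mice received no doxycycline, so an effect of the drug itself on the stress response cannot be told apart from one of Omomyc. Whether Omomyc was made in these nodes was not checked. The labels call the samples biological replicas and name no animal for each. The p-values therefore measure the spread between these 8 samples.

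Whole nodes were homogenized, so each array read human tumour RNA together with any mouse RNA that the human probes bind, and fewer cells of a type cannot be told apart from less RNA per cell. Of 7 measured melanocyte lineage markers, MITF, PMEL and SOX10 lay above the array median on all 8 arrays, and TYR and TYRP1 lay below it on all 8. Of 6 measured B cell markers, 5 lay above the median on all arrays and MS4A1 lay below it on all. Plasma cells, a host cell type with high XBP1, had 3 of 9 measured markers above the median on all arrays, SDC1, IRF4 and POU2AF1. Another 4 lay below it on all, JCHAIN, TNFRSF17, PRDM1 and CD38. A place above or below the array median does not measure the amount of a cell type. The mean level of the melanocyte list was 4.92 to 5.18 on the vehicle arrays and 5.19 to 5.25 on the doxycycline arrays. That of 7 adipocyte markers was 5.13 to 5.54 and 5.57 to 5.86, so neither pair of ranges overlapped. In these lists 0 genes had a limma adjusted p under 0.05. An unadjusted limma p under 0.05 was held by 3 of the 7 adipocyte markers, all higher with doxycycline, against 3.8% of all genes. For 3 adipocyte markers the groups did not overlap, against 2.62% of all genes. Both counts were 0 for the melanocyte markers. How often list means separate was not tested. The ranges of the B cell, macrophage, fibroblast and endothelial lists did overlap. All 9 skeletal muscle markers had a difference above 0 with doxycycline, also without vehicle replicate 1, though 0 of the 9 passed (limma adjusted p under 0.05). At an unadjusted limma p under 0.05 there were 3 of the 9 (3.8% of all genes). Without vehicle replicate 1 there was 1 of the 9 (4.91% of all genes). Of all 17491 genes, 9706 had a difference above 0 with all arrays, and the count without vehicle replicate 1 was not made. The median of the muscle list was 0.47, with list means of 6.13 to 6.81 on vehicle and 6.34 to 7.33 on doxycycline arrays. The plasma cell list was at 4.71 to 5.10 and 4.84 to 4.94. The part of these cell types in the values below was not tested.

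One array, vehicle replicate 1, stood apart. It held the highest value of the 8 arrays for 15.2% of all genes and the lowest for 28.8%. The difference of each of the 9 genes is therefore given with and without it.

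The stretches below, from near the start sites, are shown because they hold the elements through which ATF6 and ATF4 are known to act. The ER stress response element (ERSE), read by ATF6 with the CCAAT-binding factor NF-Y, was searched on both strands as the letters CCAAT and CCACG with 9 bases of any kind between them. The search covered RefSeq promoter windows (build GRCh38.p14), which run from 250 bases before to 50 bases after a start. All 10 genes had a window, 17 windows in all. An exact match was present in 27 of 35116 windows (0.0769%), belonging to 25 genes, and 4 of these were HSPA5, HSP90B1, CALR and XBP1. HSP90B1 held 2 copies. In the lines that follow, capitals mark the 10 fixed letters of the ERSE, or the whole 8 letters of the CARE motif in ASNS, and each sequence reads 5′ to 3′ on the strand of the gene.
HSPA5, chr9:125241371-125241429, minus strand: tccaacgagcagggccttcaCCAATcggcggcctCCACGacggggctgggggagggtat
XBP1, chr22:28800583-28800641, minus strand: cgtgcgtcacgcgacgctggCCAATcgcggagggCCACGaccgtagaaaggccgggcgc
CALR, chr19:12938364-12938422, plus strand: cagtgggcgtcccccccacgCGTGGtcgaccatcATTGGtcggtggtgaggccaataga
ASNS, chr7:97872449-97872496, minus strand: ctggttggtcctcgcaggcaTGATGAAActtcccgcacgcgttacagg

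The ERSE began 66 bases before the start in HSPA5, 52 bases before it in XBP1, and in CALR, where it lies on the opposite strand, 225 bases before it. The best window of DDIT3 matched 9 of the 10 fixed letters, as well as or better than which 1.55% of all windows did. PDIA4, DNAJB9 and ATF4 matched 8 of 10, as 18% of windows did or exceeded, and TRIB3 and ASNS matched 6. The CARE motif, the C/EBP-ATF element bound by ATF4, was searched as TGATGNAA and found in 3.62% of all windows. Among the 10 genes it was found in ASNS alone, 68 bases before the start. Neither the ERSE-II element (ATTGG and CCACG with 1 base between them, 0.0541% of windows) nor the XBP1-binding element (TGACGTGG, 0.729%) was found in a window of these genes. Both share the letters CCACG with the ERSE, read on 1 strand or the other. A match is a description of letters and no evidence that a factor binds there. Elements outside these windows were not searched for, nor were other spellings of the CARE motif. A gene without a match here may therefore still hold the element.

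The comparison of doxycycline with vehicle asks whether the stress response genes differed in nodes of mice in which Omomyc was to be induced. None of the 9 genes passed: 0 had an adjusted p under 0.05 (limma, Benjamini-Hochberg over 17491 genes), where 0% of all genes did. ATF4 lay lower with doxycycline, XBP1 and DNAJB9 lay slightly higher, and HSPA5, DDIT3 and TRIB3 had differences within 0.03 of 0 on the log2 scale, where 1 unit is a doubling. At an unadjusted p under 0.05 there was 1 of the 9, ATF4, against 3.8% of all genes. The vehicle and doxycycline values overlapped in all 9, so that 0 of the 9 had separate groups, against 2.62% of all genes. The median difference of the 9 genes was 0.02, and that of all genes was 0.02 too.

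ATF4, the transcription factor at the centre of the integrated stress response, had log2 values of 6.45, 5.90, 5.65 and 5.90 on vehicle replicates 1 to 4. On doxycycline replicates 1 to 4 it was at 5.38, 5.73, 5.56 and 5.67. All 4 doxycycline values lay below the vehicle mean, and the groups overlapped only through vehicle replicate 3. The means were 5.97 ± 0.34 (SD, n = 4) and 5.58 ± 0.15 (SD, n = 4), a difference of -0.39 ± 0.17 (SE) or 0.763-fold. Its 95% confidence interval ran from -0.75 to -0.03, its unadjusted limma p was 0.0374 and its limma adjusted p 0.987. By p it ranked 477 among 17491 genes. An exact two-sided permutation test over 70 assignments of the arrays gave p = 0.0857, where the smallest possible is 0.0286. Without vehicle replicate 1 the difference was -0.23 ± 0.14 (SE), with an interval from -0.53 to 0.06. Without vehicle replicate 3 the difference was -0.50, the groups no longer overlapped, and the exact permutation p was 0.0286, the smallest that 3 against 4 arrays allow; 6.68% of all genes had groups that did not overlap in that setting.

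**Figure D1:**
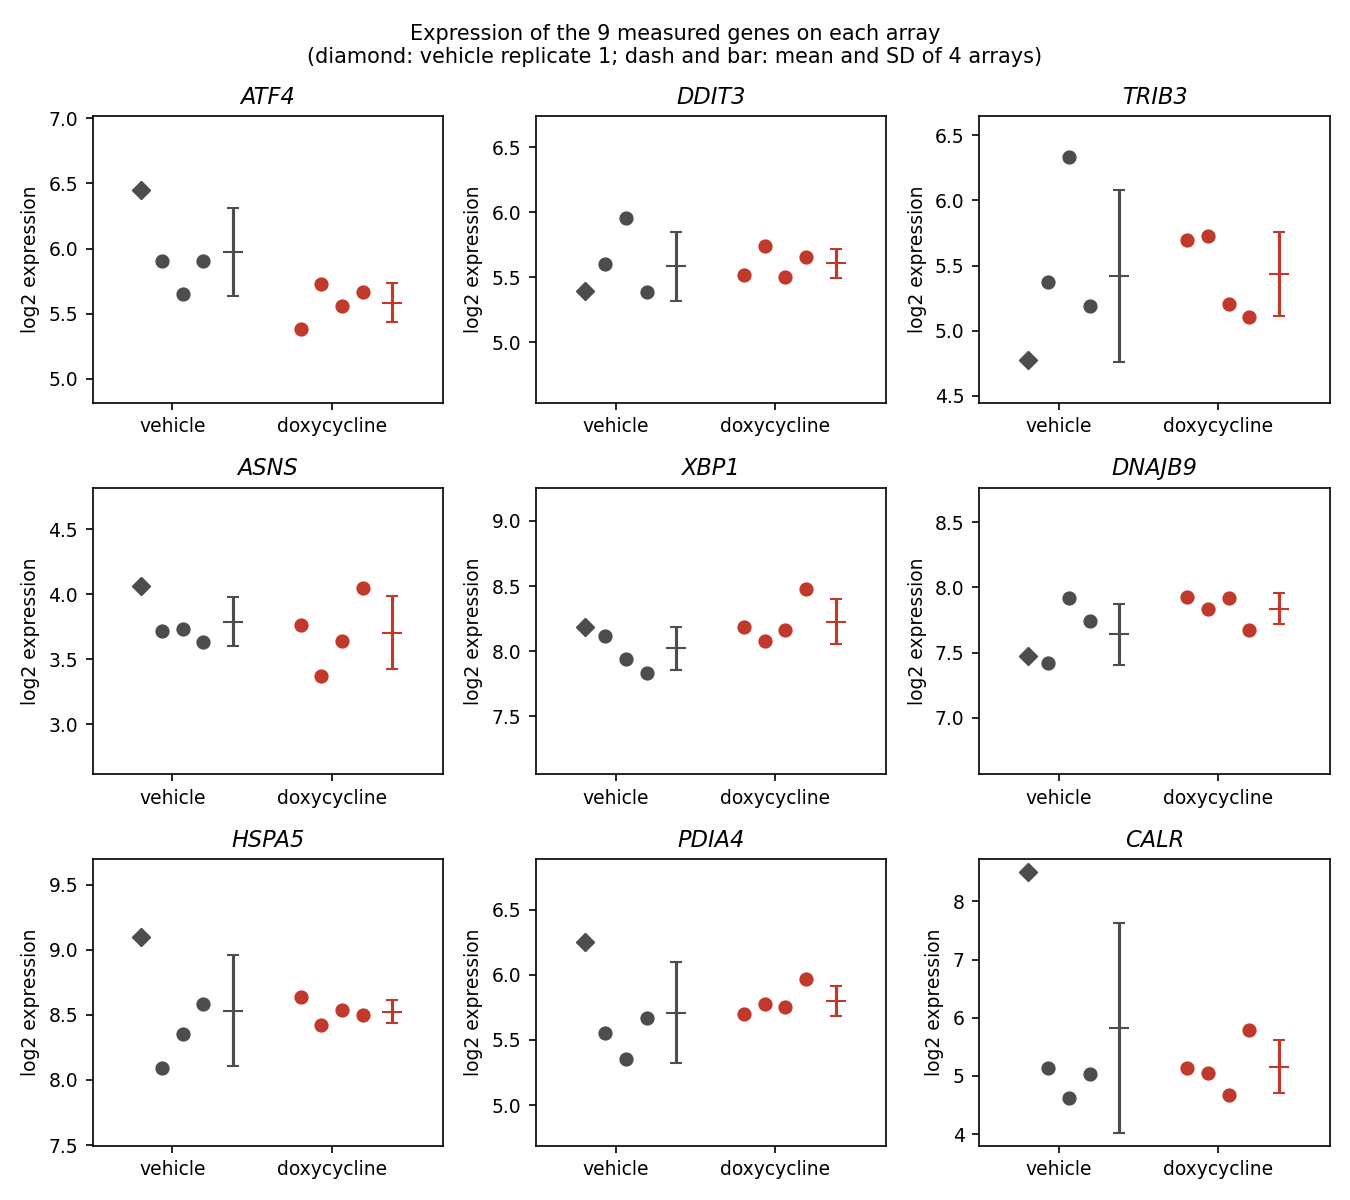
Log2 expression of the 9 measured genes on each of the 8 arrays, with vehicle in grey, doxycycline in red, vehicle replicate 1 as a diamond, and dash and bar for the mean and SD of 4 arrays; the vertical axes differ in position, and that of CALR also in span. The diamond lies far above the rest for CALR (8.50) and lowest of all for TRIB3 (4.78), and the 4 doxycycline values of ATF4 lie between 5.38 and 5.73.

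DDIT3, which encodes CHOP, the factor that ties prolonged stress to cell death, did not follow ATF4. Its values were 5.40, 5.60, 5.95 and 5.39 on the vehicle arrays and 5.52, 5.74, 5.50 and 5.66 on the doxycycline arrays. The doxycycline values all lay inside the vehicle range. The difference was 0.02 ± 0.15 (SE), with a 95% interval from -0.30 to 0.34 (limma adjusted p = 0.996), and it was -0.04 ± 0.15 (SE) without vehicle replicate 1.

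TRIB3, a pseudokinase induced by ATF4 and CHOP that damps their activity, spread most of the ATF4 arm. It was at 4.78, 5.37, 6.33 and 5.19 on the vehicle arrays and at 5.70, 5.73, 5.21 and 5.10 on the doxycycline arrays. Its highest and its lowest value both came from vehicle arrays, 1.56 apart. The difference was 0.02 ± 0.28 (SE), with an interval from -0.59 to 0.62 that spans levels from 0.664-fold to 1.54-fold (limma adjusted p = 0.998). It was -0.20 ± 0.24 (SE) without vehicle replicate 1.

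DDIT3 and TRIB3 were both highest on vehicle replicate 3, which had the lowest ATF4 of the vehicle arrays, and TRIB3 was lowest on vehicle replicate 1, which had the highest ATF4. ATF4 mRNA and the mRNAs of these 2 targets thus did not rank the vehicle arrays alike.

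ASNS, the asparagine synthetase gene and the one that carries the CARE motif shown above, had values of 4.06, 3.72, 3.73 and 3.64 with vehicle and 3.76, 3.37, 3.64 and 4.05 with doxycycline. ASNS, like ATF4, was highest on vehicle replicate 1, with doxycycline replicate 4 as high within 0.02, and the other values of both groups lay between 3.37 and 3.76. The difference was -0.08 ± 0.16 (SE), with an interval from -0.43 to 0.26 (limma adjusted p = 0.991), and it was 0.0097 ± 0.16 (SE) without vehicle replicate 1. ASNS lay below the array median on all 8 arrays, and signal over background was not assessed here.

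XBP1, the transcription factor made active by IRE1 and itself a holder of the ERSE, was at 8.19, 8.12, 7.94 and 7.83 with vehicle. With doxycycline it was at 8.18, 8.08, 8.16 and 8.48. All 4 doxycycline values exceeded the vehicle mean, though the groups overlapped. The difference was 0.20 ± 0.13 (SE), with an interval from -0.09 to 0.50 (limma adjusted p = 0.987), and 0.26 ± 0.14 (SE) without vehicle replicate 1.

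DNAJB9, an ER co-chaperone of HSPA5 and a target of spliced XBP1, was at 7.48, 7.42, 7.92 and 7.74 with vehicle and at 7.92, 7.83, 7.92 and 7.67 with doxycycline. Vehicle replicate 3 lay about as high as the highest doxycycline values, while vehicle replicates 1 and 2 lay below every doxycycline array. The difference was 0.20 ± 0.14 (SE), with an interval from -0.11 to 0.50 (limma adjusted p = 0.987), and 0.14 without vehicle replicate 1.

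HSPA5, which encodes BiP, the main Hsp70 chaperone of the ER and the brake on all 3 sensors, was at 9.10, 8.09, 8.35 and 8.58 with vehicle. With doxycycline it was at 8.64, 8.43, 8.53 and 8.50. The vehicle arrays held both the highest and the lowest value, and the doxycycline arrays lay close together, with an SD of 0.09 against 0.43. The vehicle SD was 0.25 without vehicle replicate 1. The difference was -0.00736 ± 0.19 (SE), with an interval from -0.41 to 0.40, so that a fold between 0.751 and 1.32 is within its error (limma adjusted p = 0.998). Without vehicle replicate 1 it was 0.18 ± 0.14 (SE), with an interval from -0.12 to 0.49.

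PDIA4, a disulfide isomerase of the ER, was at 6.25, 5.55, 5.35 and 5.67 with vehicle and at 5.70, 5.77, 5.75 and 5.97 with doxycycline. The first vehicle array lay above all doxycycline arrays and the other 3 lay below all of them. With all arrays the difference was 0.09 ± 0.18 (SE), with an interval from -0.30 to 0.47 (limma adjusted p = 0.991). Without vehicle replicate 1 it was 0.27 ± 0.13 (SE), with an interval from -0.02 to 0.56 and a limma adjusted p of 0.962. In that setting the groups did not overlap, as for 5.67% of all genes, and the exact permutation p was 0.0286, the smallest possible with 3 against 4 arrays and unadjusted over the 9 genes.

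CALR, which encodes calreticulin, a calcium-binding lectin chaperone of newly made glycoproteins, was at 8.50 on vehicle replicate 1 and at 5.14, 4.62 and 5.04 on the other 3 vehicle arrays. With doxycycline it was at 5.13, 5.06, 4.67 and 5.78. Apart from that 1 array, vehicle and doxycycline values were interleaved. CALR lay below the array median on 4 of the 8 arrays. The difference of -0.66 ± 0.66 (SE), with an interval from -2.10 to 0.77 (limma adjusted p = 0.987), turned to 0.23 ± 0.22 (SE) without vehicle replicate 1.

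Over the 9 genes, 5 differences were above 0 and 4 below 0 with all arrays, and 6 and 3 without vehicle replicate 1. Of all 17491 genes, 9706 were above 0 with all arrays. The signs of DDIT3 and TRIB3 also turned under cyclic loess and that of HSPA5 under quantile normalization. Those of ASNS, CALR and PDIA4 turned when single arrays were left out. None of these genes has a settled direction, and only ATF4, XBP1 and DNAJB9 kept their sign under all 18 other settings. In the exact permutation test with all arrays, the 8 genes other than ATF4 had p-values from 0.200 to 0.971. Without vehicle replicate 1 the median difference of the 9 was 0.14, against 0.0031 for all genes. Without that array 0 of the 9 passed, 0 had an unadjusted p under 0.05 (4.91% of all genes did), and the smallest limma adjusted p of these genes was 0.962.

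**Figure D2:**
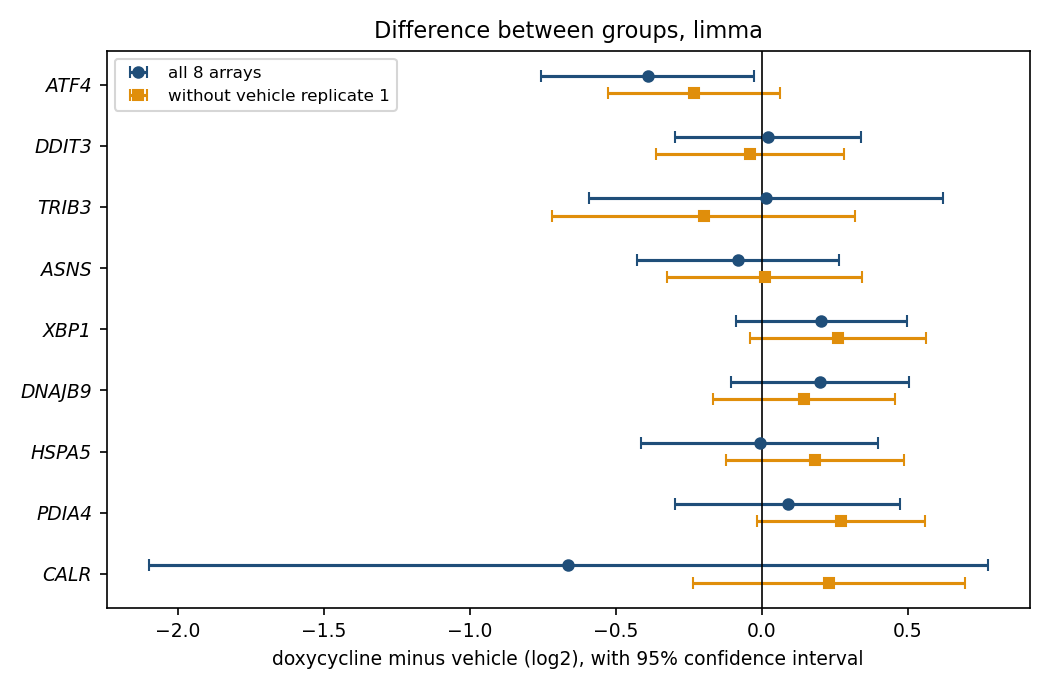
Doxycycline minus vehicle on the log2 scale for the 9 measured genes, from limma, with bars for the 95% confidence interval; blue circles use all 8 arrays and orange squares leave out vehicle replicate 1. The interval of ATF4 excludes 0 with all arrays but not without that array, running with all of them from -0.75 to -0.03, and the widest interval, that of CALR, shrinks to -0.24 to 0.69 without that array.

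The genes with the most similar profile to ATF4, by the root mean square distance of mean-centred log2 values over the 8 arrays, were ARV1 (0.08), BIRC6 (0.08) and PSME4 (0.09). Those nearest to HSPA5 were MED17 (0.06), SEPTIN7 (0.07) and NCOA4 (0.08). The median distance of all genes was 0.38 from ATF4 and 0.35 from HSPA5. Among the stress genes themselves PDIA4 lay nearest to both, at 0.26 from ATF4 (rank 1425 among all genes) and 0.17 from HSPA5 (rank 281). TRIB3 lay at 0.67 and 0.63, CALR at 0.95 and 0.99 and DDIT3 at 0.40 and 0.40, farther than the median gene. DNAJB9 lay farther than the median gene from ATF4 (0.46) but not from HSPA5 (0.34). Vehicle replicate 1 is 1 of the 8 arrays in each of these distances. Like ATF4 and HSPA5, every gene named as nearest was highest on that array, and distances without it were not computed. ARV1, BIRC6 and MED17 had highest values of 4.17, 4.85 and 3.88, below the lowest array median of 5.07.

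On vehicle replicate 1, CALR, ATF4, HSPA5 and PDIA4 stood above the other arrays, and TRIB3, DNAJB9 and DDIT3 lay below their mean. CALR exceeded the mean of the other 7 arrays by 3.44 log2 units, and 0.0858% of all genes had a larger excess. ATF4 exceeded it by 0.76, HSPA5 by 0.65 and PDIA4 by 0.57. An excess over 0.5 was thus present in 4 of the 9 genes, against 9.03% of all genes. ASNS exceeded the other arrays by 0.36 and XBP1 by 0.08. DNAJB9 lay lower by 0.30 (-0.30), DDIT3 by 0.23 (-0.23) and TRIB3 by 0.74 (-0.74). These values describe 1 array and carry no test.

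**Figure D3:**
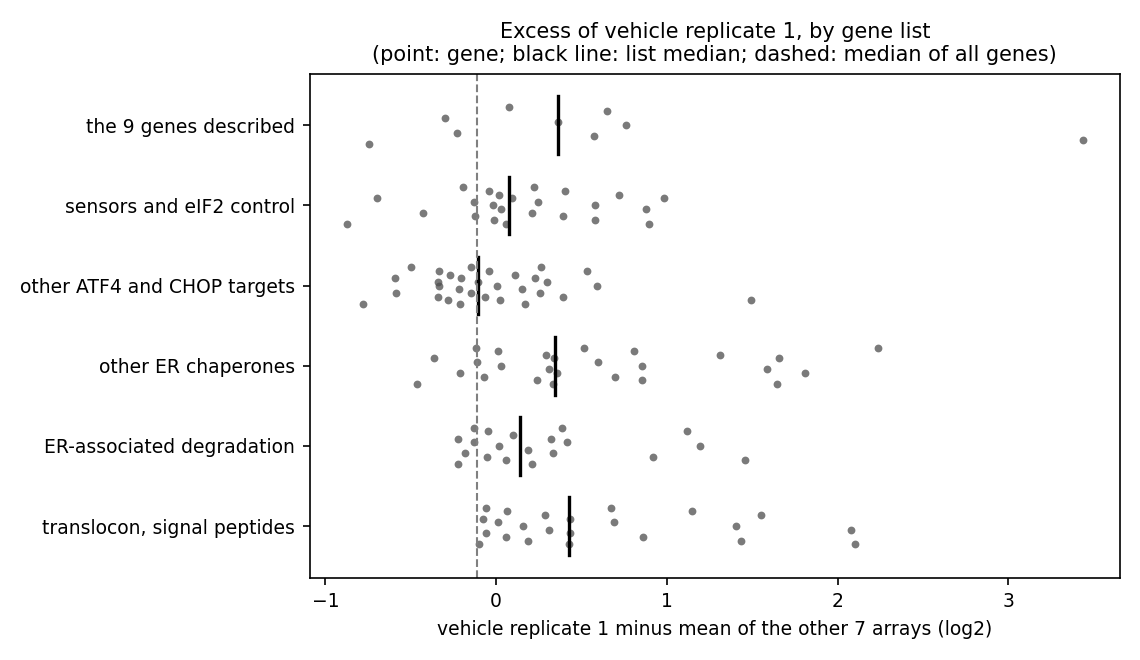
Excess of vehicle replicate 1 over the mean of the other 7 arrays, in log2 units, for the 9 genes described and for 5 lists of related genes; each point is a gene, black lines are list medians, and the dashed line is the median of all genes at -0.11. CALR lies farthest out at 3.44, and the medians of the other ER chaperones (0.35) and of the translocon genes (0.43) lie to the right of that of the other ATF4 and CHOP targets (-0.11).

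Other genes of the pathway were taken from 5 lists ordered by role. On vehicle replicate 1 an excess over 0.5 was held by 12 of 26 other ER chaperones and folding enzymes and by 9 of 23 genes of the translocon and signal peptide processing. It was held by 6 of 24 genes of the sensors and eIF2 control, 4 of 20 genes of ER-associated degradation and 3 of 31 other ATF4 and CHOP targets, the last near the 9.03% of all genes. Among the chaperones CANX, which encodes calnexin, the membrane-bound partner of calreticulin, exceeded the other arrays by 2.24, PDIA3 by 1.81 and PDIA6 by 1.65, and in the translocon list SRP72, a signal recognition particle subunit, did so by 2.10. These 4 genes were picked after their values had been seen.

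None of the 5 lists had a gene past the threshold for doxycycline against vehicle (limma adjusted p under 0.05), with or without vehicle replicate 1. At an unadjusted limma p under 0.05 there was 1 of the 31 other ATF4 and CHOP targets and 2 of the 26 other chaperones, and 0 in the other 3 lists, against 3.8% of all genes. Without vehicle replicate 1 there were 4 and 3 in these lists, 1 each among the sensors and the translocon genes and 0 in ER-associated degradation, against 4.91% of all genes. Of all 17491 genes, 9706 had a difference above 0 with all arrays, the share to set beside the counts of each list with all arrays. Without vehicle replicate 1 that count was not made for all genes, and their median difference was 0.0031. Among 24 genes of the sensors and eIF2 control, 11 differences were above 0 and 13 below 0, with a median of -0.02. The genes with the smallest p were CREB3, an ER-bound transcription factor (-0.25 ± 0.13 SE), and EIF2AK1, the haem-regulated eIF2 kinase (-0.31 ± 0.17 SE). The other way they were EIF2B5, a subunit of the eIF2 exchange factor (0.20 ± 0.14 SE), and ATF6, the sensor that is cleaved into a transcription factor (0.27 ± 0.19 SE). When vehicle replicate 1 was left out CREB3 differed by -0.23, EIF2AK1 by -0.15, EIF2B5 by 0.11 and ATF6 by 0.43. The group means of CREB3, EIF2AK1 and EIF2B5 lay between 3.21 and 4.26, below the lowest array median of 5.07.

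Among 31 other ATF4 and CHOP targets, 12 differences were above 0 and 19 below 0, with a median of -0.06, which was -0.10 without vehicle replicate 1. CEBPG, a dimer partner of ATF4, had a vehicle mean of 5.76 ± 0.12 and a doxycycline mean of 5.50 ± 0.10 (SD, each n = 4). DDIT4, an inhibitor of mTORC1, differed by -0.33 ± 0.16 (SE). EIF4EBP1, the translation repressor 4E-BP1, was the list's only gene with an unadjusted limma p under 0.05, with a vehicle mean of 5.68 ± 0.18 and a doxycycline mean of 6.13 ± 0.37 (SD, each n = 4; limma adjusted p = 0.987). Its difference of 0.44 was 0.27 without doxycycline replicate 4. SESN2, a stress-induced inhibitor of mTORC1, differed by 0.27 ± 0.14 (SE). The differences without vehicle replicate 1 were -0.23 for CEBPG, -0.28 for DDIT4, 0.50 for EIF4EBP1 and 0.21 for SESN2.

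Among 26 other ER chaperones and folding enzymes, 9 differences were above 0 and 17 below 0, with a median of -0.06, and without vehicle replicate 1 the counts were 17 and 9 and the median 0.03. HYOU1, a large Hsp70-like chaperone and nucleotide exchange factor of BiP, was at 6.20, 6.02, 6.22 and 6.23 with vehicle and at 5.72, 5.65, 6.12 and 5.79 with doxycycline. Only doxycycline replicate 3 reached into the vehicle range. The difference of -0.35 ± 0.13 (SE) had an unadjusted limma p of 0.023 and a limma adjusted p of 0.987, and it was -0.34 without vehicle replicate 1. PPIB, the ER cyclophilin, differed by -0.76 ± 0.30 (SE), and by -0.41 without that array. SIL1, another nucleotide exchange factor of BiP, differed by 0.27 ± 0.18 (SE) and MOGS, which trims the first glucose from glycoproteins, by 0.14 ± 0.14 (SE). The group means of SIL1 and MOGS lay below the lowest array median of 5.07. So did the doxycycline mean of PPIB (4.76), while the vehicle mean of PPIB was 5.52.

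Among 20 genes of ER-associated degradation, 8 differences were above 0 and 12 below 0, with a median of -0.01 that was 0.07 without vehicle replicate 1. DERL2, a membrane component of that system, differed by 0.28 ± 0.13 (SE) and EDEM3, a mannosidase that marks misfolded glycoproteins, by 0.18 ± 0.12 (SE). DERL3, a paralogue of DERL2, differed by -0.21 ± 0.16 (SE), which was -0.31 without vehicle replicate 1, and VCP, the ATPase that extracts proteins from the membrane, by -0.32 ± 0.24 (SE), which was -0.05 without vehicle replicate 1. Among 23 genes of the translocon and signal peptide processing, 8 were above 0 and 15 below 0, with a median of -0.07, and without that array 16 and 7 with a median of 0.05. SRP9 and SRP14, which together form the Alu domain of the signal recognition particle, differed by -0.36 ± 0.27 (SE) and -0.36 ± 0.30 (SE), and by -0.08 and 0.03 without it. SRP54, its GTPase, differed by 0.18 ± 0.12 (SE) and SEC62, a translocon partner, by 0.27 ± 0.20 (SE), the latter by 0.45 without that array. The group means of SRP54 (3.06 and 3.24) and of VCP (4.61 and 4.29) lay below the lowest array median of 5.07. The differences of VCP, SRP9 and SRP14 thus shrank most when the outlying array was left out, among the genes named here from these 2 lists.

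**Figure D4:**
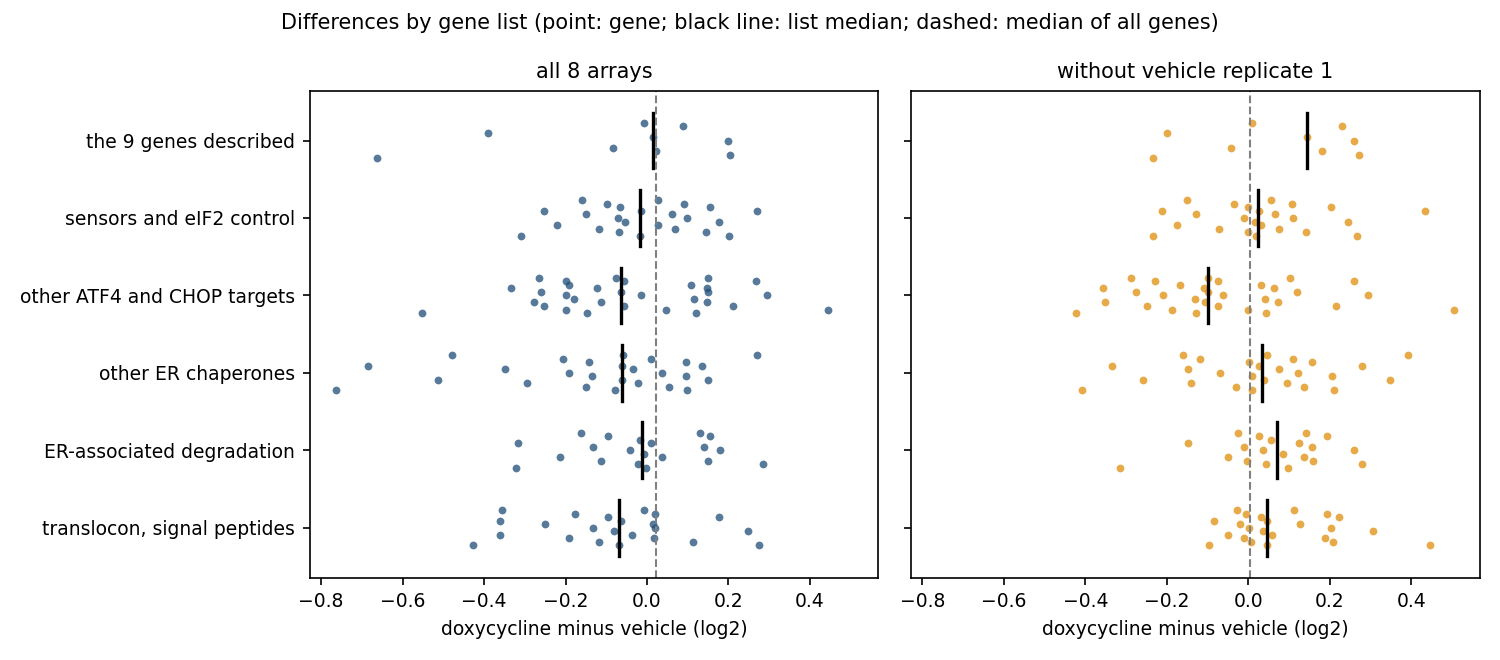
Doxycycline minus vehicle on the log2 scale for the 9 genes described and 5 lists of related genes, with all 8 arrays on the left and without vehicle replicate 1 on the right; each point is a gene, black lines are list medians and dashed lines the median of all genes. On the left the list medians lie between -0.07 and 0.02, and on the right the chaperone and translocon medians lie above 0, at 0.03 and 0.05, while that of the other ATF4 and CHOP targets lies at -0.10.

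Of the 25 genes with an exact ERSE in a promoter window, 20 were measured, and 17 of these were not among the genes described here. With doxycycline 8 of the 20 differences were above 0 and 12 below 0, with a median of -0.03. Of all 17491 genes, 9706 were above 0 with all arrays. Among the 20, 0 passed or had an unadjusted limma p under 0.05, which 3.8% of all genes had. The median was -0.05 without vehicle replicate 1, with 8 differences above 0, and that of CANX was -0.15. With all arrays their range was from -0.69 for CANX to 0.20 for XBP1. On vehicle replicate 1 an excess over 0.5 was held by 5 of the 20, namely CALR, CANX, PDIA6, EIF2A and HSPA5, against 9.03% of all genes, while the median excess of the 20 was -0.09. The element was therefore shared by genes that stood high on that array and by genes, such as XBP1 (0.08) and CRELD2 (-0.11), that did not.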

How the data were processed

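Per the submitters' processing notes, the deposited values are log2 expression values made with RMA, which corrects background, normalizes between arrays and summarizes probes. For the RMA version, the scanner steps and the genome build, nothing is given in the sources used here. The table held 18565 probe sets; 17509 had 1 symbol in the platform annotation, 0 several and 1056 none. Symbols were updated through gene IDs, and a gene's probe set with the highest mean was kept (17491 genes).

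Doxycycline minus vehicle was fitted over all genes with limma 3.58.1 in R 4.3.3 (lmFit, eBayes, no covariates, two-sided, Benjamini-Hochberg, threshold 0.05). On simulated arrays with these spreads and 17491 genes, limma called 81 of the 100 genes that had been shifted by 1 log2 unit. In the same simulation another 100 genes had been shifted by 2 log2 units, and 99 of them were called. Of the 17291 genes left unshifted, 8 were called. Values were drawn independently for each gene and array, so no simulated array stood apart as vehicle replicate 1 did. The share called on the real arrays may therefore differ. Smaller shifts were not simulated. The measured stress response genes differed by less than 1 log2 unit, CALR by -0.66 and ATF4 by -0.39. The simulation therefore does not give the chance of a call for differences of their size. Single genes were also tested by exact permutation. Data were handled with the R package data.table (version 1.17.8) and with pandas 2.3.3 in Python 3.11.15, and plotted with matplotlib 3.10.9. The number of arrays limits the precision. Alternatives covered normalization, filters, probe sets, variance model, array weights, a replicate block and each array left out.

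The 10 genes and the lists were chosen with earlier results of these data known. Genes named by rule were the 10, the 2 genes of smallest p in each direction per pathway list, and the 3 profiles nearest to ATF4 and HSPA5. Outside that rule, CANX, PDIA3, PDIA6, SRP72, EIF2A and CRELD2 were named after their values on vehicle replicate 1 had been seen. Some cell type markers were named too.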

Additional observations from a re-analysis of the deposited data

Results flagged for a closer look

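CALR in the vehicle group had 1 array far from the others: vehicle replicate 1 was at 8.50 and the other 3 between 4.62 and 5.14. The gap made up 0.865 of the group's whole range, above Dixon's 95% critical value for 4 samples. This was 1 of 18 groups checked, and chance alone marks about 1 group in 20.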

How the results depend on the processing

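None of the 9 genes passed under any of 18 other settings, the smallest adjusted p of any of them being 0.808 (limma). Of 160 values of the 9 genes under these settings, 140 kept their sign and 20 did not. ATF4, XBP1 and DNAJB9 kept theirs in all 18, with leave-one-out ranges of -0.50 to -0.23, 0.12 to 0.26 and 0.13 to 0.29. CALR ranged from -1.07 to 0.23, PDIA4 from -0.029 to 0.27, DDIT3 from -0.045 to 0.14, ASNS from -0.20 to 0.029, TRIB3 from -0.20 to 0.32 and HSPA5 from -0.15 to 0.18 when single arrays were left out. Under cyclic loess DDIT3 turned to -0.011 and TRIB3 to -0.017; HSPA5 turned to 0.0084 under quantile normalization and to 0.059 with array weights; the cause was not tested. ASNS was among the dimmest 25% of genes and had no value without them. Counts of members whose groups did not overlap, and of those with an exact permutation p under 0.05, ranged from 0 to 1 without single arrays, through PDIA4 and ATF4. Without vehicle replicate 1 the median of ER-associated degradation moved from -0.013 to 0.071. Its range with single arrays left out was -0.051 to 0.071.

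The replicate block changed no call at an adjusted p under 0.05, and 0 genes passed with it. The deviations of same-numbered arrays from their group means had correlations of -0.05, 0.15, 0.09 and 0.0029 over all genes. Whether same-numbered arrays shared more than a number was not tested. With the replicate block the ATF4 difference was -0.39, with an unadjusted limma p of 0.0525 in place of 0.0374, so 0 of the 9 genes had an unadjusted p under 0.05. With 4 arrays per group, the 95% intervals of the 9 genes were between 0.587 and 2.87 log2 units wide.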
